A study of Mus musculus with 23 samples.

Results

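Open chromatin of the duodenal villus was compared with that of the duodenal crypt in geriatric mice. The comparison used the 6 libraries whose titles name geriatric villi (3 libraries) or geriatric crypts (3 libraries), out of 23 in the series. ATAC-seq was used, in which a transposase inserts sequencing adapters into accessible DNA, so that reads pile up where chromatin is open. All 6 libraries came from mice of 21 months. The labels name no strain, sex, genotype or treatment for these mice. Epithelium was released with 3 mM EDTA and passed over a 70 µm strainer, villi being what stayed on top and crypts what passed through. Each fraction was then made into single cells with trypsin. The fractions were therefore separated by size and not by a marker, and each library is a mixture of cell types. The series text counts 3 mice of each age as biological replicates, so villus and crypt libraries may come from the same mice, and the labels do not tie a library to a mouse. The p-values measure only the spread between these libraries, part of which may be technical.

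The intestinal villus is a projection into the gut lumen, covered mostly by absorptive enterocytes that no longer divide, with goblet, enteroendocrine and tuft cells among them. The crypt is the pit at its base. It holds the stem cells and dividing progenitors that renew the epithelium, and Paneth cells, which secrete antimicrobial peptides. A cell leaves the crypt, stops dividing and differentiates as it moves up the villus. Regions of open chromatin include gene promoters, many of which are open in most cell types, and distal elements such as enhancers, which are more often specific to a cell type. In bulk libraries such as these, fewer cells with an open region and less opening per cell cannot be told apart.

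Geriatric villus libraries had 35105, 42307 and 39952 peaks, against 60519, 39389 and 38941 in geriatric crypt libraries. The groups overlapped, with 39121 ± 3672 peaks in villus and 46283 ± 12331 in crypt (SD, n = 3 each, two-sided exact permutation p = 0.6, where 0.1 is the smallest p that 3 against 3 libraries allow). Crypt library 1 stood apart in its long list, and 25.9% of its peaks overlapped no peak of the other 5 libraries, against 7.54 to 19.2% in those. Without it the mean difference in list length was −43.7 peaks, against −7162 with it. Between 16.8 and 30.3 M reads were kept per villus library and between 18.7 and 40.5 M per crypt library. The peak caller extended each read to a length of its own per library, 210, 159 and 116 bp in villus libraries 1, 2 and 3 and 121, 125 and 102 bp in crypt libraries 1, 2 and 3. The median peak was 367, 299 and 193 bp wide in villus and 216, 214 and 189 bp wide in crypt.

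Each library was closer to those of its own compartment than to any of the other compartment. The Jaccard index, the number of regions called in both of 2 libraries over the number called in either, was taken with every list reduced to its 35105 strongest peaks. It was 0.523 to 0.625 between villus libraries and 0.567 to 0.593 between crypt libraries, and 0.368 to 0.454 in the 9 pairs of a villus with a crypt library. Villus library 3 had the lowest index with crypt, 0.368 to 0.401, and its 2 pairs within villus were below the pair of villus libraries 1 and 2. The labels of villus and crypt were not checked against marker genes, since the gene annotation used here is of another genome build than the peaks, and regions are named by their mm9 coordinates.

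More accessible regions were found in all libraries of both compartments than in all libraries of 1 compartment and none of the other. Merging the 6 lists by an overlap of at least 1 bp gave 88855 regions, of which 67612 held a peak in the lists of equal length. A peak in all 6 libraries was found in 13836 of these, called common regions here. Another 3777 had a peak in all 3 villus and in no crypt library, and 3171 in all 3 crypt and no villus library. These are called villus-exclusive and crypt-exclusive, and they made up 5.59% and 4.69% of the 67612 regions. With full lists the order of the counts was the other way round, 3365 villus-exclusive and 4096 crypt-exclusive regions, or 3.79% and 4.61% of 88855. The equal-length lists had more villus-exclusive than crypt-exclusive regions, so the choice of list decides which compartment has more. Without crypt library 3 there were 4927 crypt-exclusive regions, a count for which 2 crypt libraries suffice. Peaks in a single library were the largest remainder, with 12708 regions in 1 villus library alone and 11084 in 1 crypt library alone.

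**Figure D1:**
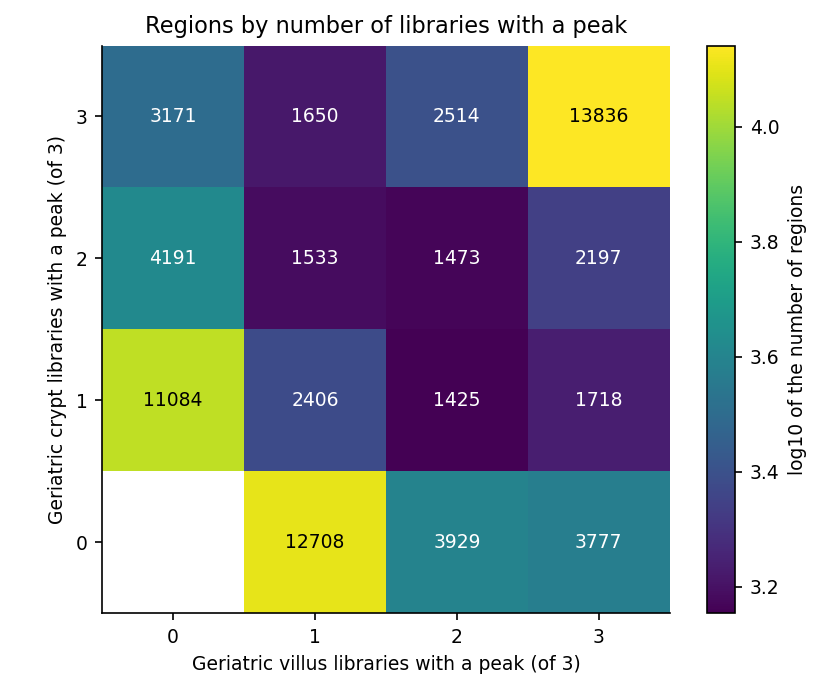
Number of regions by how many of the 3 geriatric villus libraries (horizontal axis) and of the 3 geriatric crypt libraries (vertical axis) hold a peak, each list at its 35105 strongest peaks; the colour is the log10 of the number. The bottom right cell holds the 3777 villus-exclusive regions, the top left the 3171 crypt-exclusive ones and the top right the 13836 common regions.

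Absence of a peak means that the signal stayed under the caller's threshold, not that the region was closed. Of the villus-exclusive regions, 2860 (75.7%) also had no peak in any full crypt list, 764 had one in 1 crypt library, 145 in 2 and 8 in all 3. Of the crypt-exclusive regions, 2805 (88.5%) had no peak in any full villus list, 347 had one in 1 villus library and 19 in 2. The weak crypt peaks at villus-exclusive regions lay mostly in crypt library 1, whose full list covered 18.4% of them, against 5.14% in crypt library 2 and 5.03% in crypt library 3. Full villus lists covered 9.90% of crypt-exclusive regions in library 2 and 2.24% in library 3. Villus library 1 sets the equal length, so its full and reduced lists are the same. The lowest pileup at which a peak was called was 8, 10 and 8 extended reads in villus libraries and 6, 7 and 9 in crypt libraries.

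The strongest peaks of either compartment were nearly always present in the other. Among the 1000 strongest peaks of a library, 0.5% ± 0.26 of villus peaks had no peak in any crypt library, and 0.167% ± 0.0577 of crypt peaks had none in any villus library (SD, n = 3 each). For ranks 1001 to 5000 the shares were 4.61% ± 0.559 for villus and 2.36% ± 1.08 for crypt. These ranks separated all villus libraries, at 4.00% or above, from all crypt libraries, at 3.23% or below. For ranks 5001 to 20000 the shares overlapped, at 17.2% ± 2.54 for villus and 17.5% ± 2.04 for crypt, and from rank 20001 on they were 40.6% ± 6.06 and 41.9% ± 1.37 (SD, n = 3 each). In that last class 31.6% ± 3.80 of villus peaks and 22.2% ± 5.08 of crypt peaks also lacked a peak in the other 2 libraries of their own compartment. At ranks 5001 to 20000 that share was only 3.87% ± 2.46 in villus and 3.17% ± 0.911 in crypt (SD, n = 3 each). At these ranks absence from the other compartment was thus more frequent than absence from the other libraries of the same compartment.

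**Figure D2:**
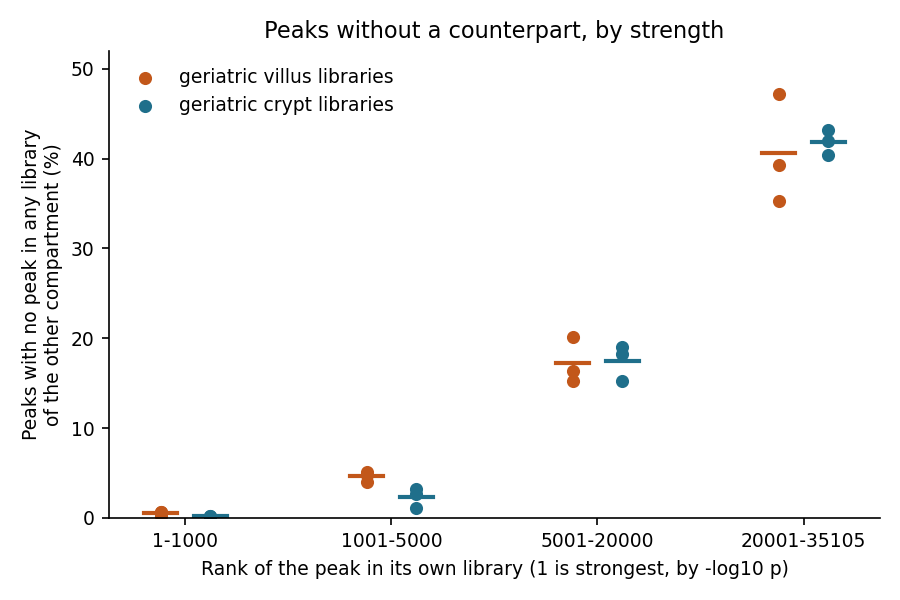
Share of the peaks of each geriatric villus and geriatric crypt library with no peak in any full list of the other compartment (percent), by the rank of the peak in its own library. Points are libraries and horizontal lines their means; the means rise from under 1% among the 1000 strongest peaks to 40.6% in villus and 41.9% in crypt from rank 20001 on.

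Exclusive regions were weaker than common ones. The choice partly builds this in, since a stronger peak more often passes the list cutoff in all 6 libraries. The median width was 403 bp for villus-exclusive, 329 bp for crypt-exclusive and 621 bp for common regions, against 310 bp for all 67612. A width is that of merged peaks, from 6 libraries in a common region and mostly from 3 in an exclusive one, so the widths of the classes are not comparable as peak widths. In villus libraries 1, 2 and 3 the median pileup (the number of extended reads stacked at the summit) per M kept reads, with M for mega, was 1.37, 0.958 and 0.571 in villus-exclusive regions and 1.84, 1.35 and 0.773 in common regions. In crypt libraries 1, 2 and 3 it was 1.12, 0.714 and 0.445 in crypt-exclusive and 1.66, 1.07 and 0.667 in common regions. The 5000 strongest peaks of a library took in 6.14 to 7.04% of the villus-exclusive and 1.83 to 4.48% of the crypt-exclusive regions, against 30.6 to 33.9% of the common ones. All 3 villus libraries exceeded all 3 crypt libraries in this share.

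The strongest villus-exclusive regions were taken by their lowest pileup per M in the 3 villus libraries, among regions with no peak in any full crypt list. The first, 301 bp on chromosome X at 65616511 to 65616811, had 1.96, 2.08 and 2.08 pileup per M in villus libraries 1, 2 and 3, from stacks of 33, 63 and 62 reads. It was the most even of the 10 across villus libraries. It had no call in geriatric crypt, although all 3 adult crypt libraries had a peak there of 0.76 to 0.84 per M, and it is not in the authors' deposited list of villus regions.

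The 770 bp region on chromosome 8 at 19881038 to 19881807 had 3.57, 1.78 and 1.58 per M in villus libraries 1, 2 and 3. Its peak was found in the 3 adult villus libraries, in 1 adult colon library and in no adult crypt or juvenile duodenum library. On chromosome 6 at 18220993 to 18221456 the villus values were 2.62, 2.25 and 1.51 per M. That region had a peak in every adult villus, adult crypt and juvenile duodenum library, and in 2 adult colon libraries. In adult villus it reached 3.56, 2.58 and 1.03 per M and in adult crypt 1.39, 0.65 and 0.54.

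The other leading villus-exclusive regions lay on chromosome X at 120571875 to 120572139, chromosome 4 at 6728479 to 6729123, chromosome 19 at 39341439 to 39341775, chromosome 14 at 70053487 to 70053976, chromosome 2 at 50160338 to 50160974, chromosome 6 at 147723087 to 147723452 and chromosome 13 at 81540726 to 81541107. Their lowest villus values were 1.28 to 1.39 per M. None of the 10 had a peak in geriatric proximal colon, and 9 of the 10 had one in all 3 adult villus libraries. Of all villus-exclusive regions, 1.80% and 0.635% had a peak in the geriatric proximal colon libraries and 82.9 to 97.9% in each full adult villus list. The exception was chromosome X at 120571875, with a peak in 1 adult villus and 2 adult colon libraries, none in adult crypt and none in juvenile duodenum. Adult crypt had a peak in all 3 libraries at the chromosome 14 region and at chromosome 6 at 147723087. It had one in 2 libraries at the regions of chromosomes 4, 2 and 13, and in 1 at that of chromosome 19. Each full adult crypt list had a peak at 16.3 to 55.4% of all villus-exclusive regions. The authors' deposited list of regions higher in geriatric villus holds 7 of the 10.

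Among crypt-exclusive regions, the strongest was 549 bp on chromosome 4 at 141549796 to 141550344, with 5.46, 3.13 and 1.78 pileup per M in crypt libraries 1, 2 and 3. These were stacks of 102, 70 and 72 reads, and no geriatric villus library had a peak there. The region also had a peak in all 3 adult crypt, all 3 juvenile duodenum, all 3 adult colon, 1 juvenile colon and both geriatric proximal colon libraries. Adult crypt reached 3.96, 3.87 and 2.39 per M, and a single adult villus library had a peak, of 0.68 per M.

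The region on chromosome 8 at 19984262 to 19984594 lies further along the same chromosome as the villus region named above and was called in the other compartment. It had 2.14, 1.34 and 1.19 per M in crypt libraries 1, 2 and 3, and a peak in 2 adult crypt libraries and in no library of adult villus, juvenile duodenum or colon. On chromosome 7 at 115760109 to 115760627 the crypt values were 2.57, 1.70 and 1.06 per M, and the 3 adult crypt values were 2.57, 2.40 and 1.55. This region also had a peak in all 3 juvenile duodenum, all 3 adult colon, 2 juvenile colon and both geriatric proximal colon libraries. In adult villus, 1 library had a peak, of 0.41 per M.

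Next in order were chromosome 3 at 92054291 to 92054659, chromosome 1 at 196436567 to 196437184, chromosome 10 at 81034341 to 81034601, chromosome 17 at 84398240 to 84398873, chromosome 2 at 60541379 to 60541888, chromosome 15 at 74370307 to 74370788 and chromosome 2 at 131002315 to 131002704. Their lowest crypt values were 0.94 to 1.04 per M, all in crypt library 3 and below those of the villus regions of the same rank. Heights per M also differ between libraries as a whole, and crypt library 3 had the lowest median over common regions. All 7 had a peak in every adult crypt library, where each full adult crypt list had one at 76.6 to 92.4% of all crypt-exclusive regions. Adult villus had a peak in 1 library at the chromosome 10 region and at chromosome 2 at 60541379, and in 2 at chromosome 2 at 131002315. Each full adult villus list had a peak at 8.55 to 27.9% of all crypt-exclusive regions. The authors' deposited list of regions higher in geriatric crypt holds 8 of the 10 leading crypt regions.

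Exclusive regions were spread over all autosomes and the X chromosome. Villus-exclusive regions made up 4.73 to 7.28% of the called regions of each autosome and crypt-exclusive regions 4.23 to 5.65%. On the X chromosome both shares were lower, 2.72% for villus and 2.67% for crypt. Villus regions prevailed most on chromosome 19, with 150 against 88 crypt regions, and crypt regions on chromosome 16, with 124 villus against 140 crypt regions.

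Villus-exclusive regions lay close to each other more often than crypt-exclusive ones. The nearest exclusive region was at a median of 41.8 kb from a villus-exclusive and 61.7 kb from a crypt-exclusive region. For 67.1% of villus-exclusive and 56.8% of crypt-exclusive regions that neighbour was of the same compartment, where the compartments supplied 54.4% and 45.6% of all exclusive regions. Among villus-exclusive regions with an exclusive neighbour within 10 kb (786), the neighbour was villus-exclusive for 77.5%. For crypt-exclusive regions (438) it was crypt-exclusive for 57.8%. Of 16505 windows of 100 kb with a called region, 2899 held a villus-exclusive and 2680 a crypt-exclusive region. At least 4 villus-exclusive regions lay in 36 windows, 25 of them with no crypt-exclusive region. At least 4 crypt-exclusive regions lay in 11 windows, 8 of them with no villus-exclusive region. These counts are not adjusted for the larger number of villus-exclusive regions, 3777 against 3171. The densest windows, chosen after their values were seen, held 6 villus-exclusive and no crypt-exclusive region. They lay on chromosome 11 at 62800001 to 62900000, chromosome 13 at 3700001 to 3800000 and chromosome 15 at 5400001 to 5500000. For crypt, windows on chromosome 16 at 49900001 to 50000000 and chromosome 5 at 68300001 to 68400000 held 5 crypt-exclusive and no villus-exclusive region each.

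The exclusive regions were then looked up in libraries that had no part in choosing them. Adult mice were 90 days old and their villus and crypt libraries were prepared in the same way. With lists at their 35105 strongest peaks, the villus-exclusive regions of geriatric mice had a peak in adult villus libraries 1, 2 and 3 at 91.5, 89.6 and 76.3%, and in adult crypt libraries 1, 2 and 3 at 32.4, 16.2 and 17.0%. The means were 85.8% ± 8.29 in adult villus and 21.9% ± 9.15 in adult crypt, a difference of 63.9 percentage points (SD, n = 3 each, two-sided exact permutation p = 0.1, the smallest possible). The crypt-exclusive regions had a peak at 10.2, 6.97 and 6.31% in adult villus libraries and at 70.6, 76.5 and 78.4% in adult crypt libraries. Their means were 7.82% ± 2.07 in adult villus and 75.2% ± 4.06 in adult crypt, a difference of −67.3 points (SD, n = 3 each, two-sided exact permutation p = 0.1, the smallest possible). The groups did not overlap in either case. Over all 67612 called regions the adult compartments had nearly the same share, 44.7% ± 4.63 in adult villus and 44.4% ± 0.552 in adult crypt (SD, n = 3 each).

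Region by region the adult pattern was less complete. Of the 3777 villus-exclusive regions, 1236 (32.7%) were also called in all 3 adult villus and no adult crypt library, against 2832 (4.19%) of all 67612 called regions. A further 899 had all 3 adult villus libraries and 1 adult crypt library, and 94 had a peak in none of the 6. None had the reverse pattern of no adult villus and all 3 adult crypt libraries. Of the 3171 crypt-exclusive regions, 1402 (44.2%) were called in all 3 adult crypt and no adult villus library, against 2814 (4.16%) of all called regions. Another 183 were called in none of the 6, and 2 in all 3 adult villus and no adult crypt library. Adult crypt libraries thus held peaks in more geriatric villus regions than adult villus libraries held in geriatric crypt regions. The share was highest in adult crypt library 1, and without it the difference for villus-exclusive regions was 69.2 points.

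**Figure D3:**
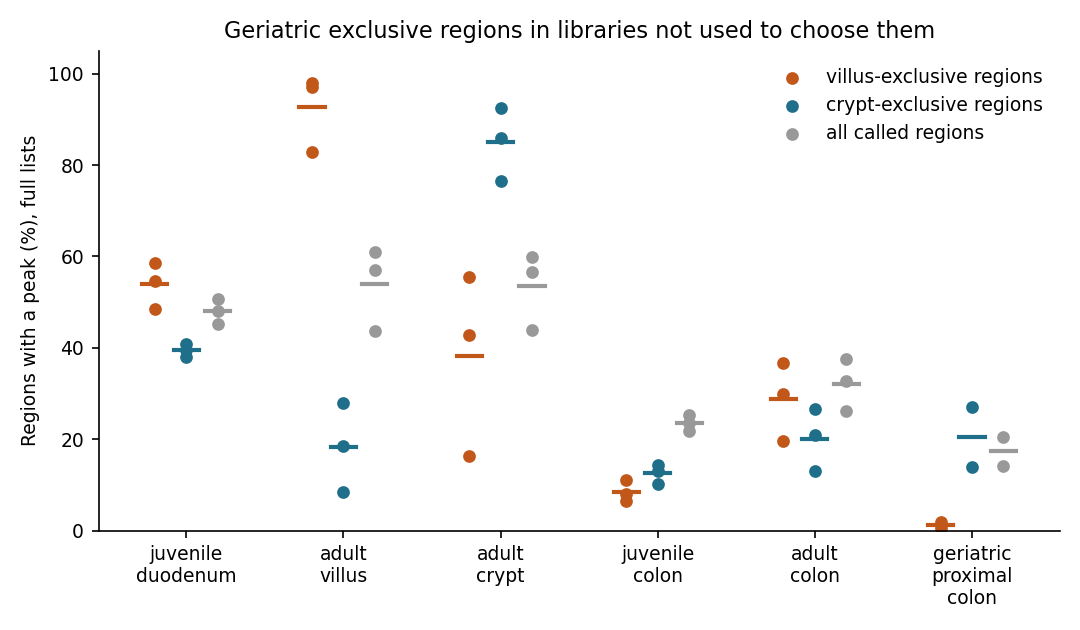
Share of the geriatric villus-exclusive and crypt-exclusive regions, and of all 67612 called regions, with a peak in each full list of the other 17 libraries (percent). Points are libraries and horizontal lines group means; adult villus libraries lie above adult crypt libraries for villus-exclusive regions and below them for crypt-exclusive regions, and geriatric proximal colon is near 0 for villus-exclusive regions.

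Juvenile and colonic epithelium, neither of which was divided into villus and crypt, shared the 2 kinds of region unequally. Juvenile colon came from mice of 15 days, with 6 pooled per library, and adult colon from mice of 90 days, with 2 pooled per library. Full lists are used here, and all 67612 called regions give the level to read them against. Juvenile duodenum, taken whole at 12 days, had a peak at 54.0% ± 5.04 of villus-exclusive and 39.5% ± 1.45 of crypt-exclusive regions, against 48.0% ± 2.84 of all called regions (SD, n = 3). The villus-exclusive share was higher in each of the 3 libraries, by 10.6 to 17.7 points. Adult colon likewise had a peak at more villus-exclusive (28.8% ± 8.62) than crypt-exclusive regions (20.1% ± 6.84), both below its 32.2% ± 5.63 of all called regions (SD, n = 3). Juvenile colon leaned the other way, with 8.55% ± 2.40 of villus-exclusive and 12.5% ± 2.19 of crypt-exclusive against 23.6% ± 1.72 of all called regions (SD, n = 3).

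The 2 libraries of geriatric proximal colon, the colon sample of the same age, had a peak at 1.80% and 0.635% of villus-exclusive regions. They had one at 27.2% and 13.9% of crypt-exclusive regions and at 20.6% and 14.1% of all called regions. Their lists were the shortest of the series, with 17026 and 11355 peaks, and each of their libraries pooled 2 mice. Over all 8 colon libraries, 2204 villus-exclusive (58.4%) and 1609 crypt-exclusive regions (50.7%) had no peak, against 1336 common regions (9.66%). No peak in juvenile duodenum or colon was found for 796 villus-exclusive (21.1%) and 805 crypt-exclusive regions (25.4%), against 94 common regions (0.679%). Neither count was taken over all called regions, so the level to read them against is missing here. Common regions also had stronger peaks than exclusive ones. Whether peak strength accounts for the contrast with common regions was not tested.

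Shared regions were compared by height. On full lists 15587 regions had a peak in all 6 libraries, a wider set of common regions than the 13836 of the equal-length lists, and the pileup of the strongest peak of each library was divided by its kept reads in M. On this scale, limma (linear model with a moderated test, Benjamini-Hochberg adjustment, no term for the replicate number) called 0 regions higher and 0 lower in villus at an adjusted p of 0.05, that is 0% of the regions in each direction. At an unadjusted p of 0.05 there were 435 higher and 21 lower. All 3 villus libraries lay above all 3 crypt libraries in 707 regions (4.54%) and below them in 40 (0.257%). Testing fold enrichment over the local background in place of pileup gave 83 higher and 485 lower. Dividing by the extension length as well gave 3 higher and 12 lower. A term for the replicate number, which the labels do not tie to a mouse, gave 3165 higher and 495 lower. The 0 calls thus depend on leaving that term out. Libraries of the same group differed widely in their overall height. The median log2 pileup per M over the common regions was 0.83, 0.40 and −0.44 in villus libraries 1, 2 and 3 and 0.68, −0.026 and −0.64 in crypt libraries 1, 2 and 3. In villus libraries it had the order of the extension lengths of 210, 159 and 116 bp, and in crypt libraries, with 121, 125 and 102 bp, it did not. In both groups the median height fell as total reads before filtering rose. Villus libraries 1, 2 and 3 had 37.1, 63.8 and 95.7 M total reads and crypt libraries 1, 2 and 3 had 44.0, 52.4 and 81.6 M. The cause was not tested. The median difference of villus minus crypt was 0.23 on this scale, and differences are given relative to the library medians from here on.

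With each library centred on its median, 1018 common regions were higher and 1035 lower in villus (limma, adjusted p of 0.05), which is 6.53% and 6.64% of 15587. The higher regions had a median log2 difference of 0.91, with 358 of them above 1, which is a doubling. The lower regions had a median of −0.79, with 185 below −1. Uncentred, 886 of all common regions were above 1 and 44 below −1. After centring, all 3 villus libraries lay above all 3 crypt libraries in 2137 regions (13.7%) and below them in 2569 (16.5%), so the balance of the directions depends on the centring. The number of calls depended on single libraries. Without villus library 2 there were 549 higher and 539 lower, without villus library 1 there were 560 higher, and without crypt library 2 there were 688 lower.

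The largest increase in villus was on chromosome 6 at 122565757 to 122566201. Its pileup per M was 5.11, 3.24 and 2.45 in villus libraries 1, 2 and 3 and 0.588, 0.670 and 0.420 in crypt libraries 1, 2 and 3. The lowest villus library was above the highest crypt library. The centred log2 difference was 2.39 ± 0.22 (SE, limma adjusted p = 1.42e-06).

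On chromosome 3 at 148461149 to 148462304 the villus values were 3.63, 3.01 and 2.12 per M and the crypt values 0.695, 0.536 and 0.395, a centred log2 difference of 2.1696 ± 0.21 (SE, limma adjusted p = 1.42e-06). The 1232 bp region on chromosome 13 at 6254542 to 6255773 had 4.04, 2.31 and 1.61 per M in villus and 0.749, 0.580 and 0.321 in crypt (1.99 ± 0.21 SE, limma adjusted p = 3.79e-06). In both regions the lowest villus library was above the highest crypt library. Library 3 was the lowest of its group in each of the 3 regions on either side, as it was over all common regions.

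Further leading regions of higher signal in villus were chromosome 1 at 179678216 to 179678771, chromosome 15 at 53033820 to 53034256, chromosome 13 at 35487042 to 35487944, chromosome 14 at 122407235 to 122407916, chromosome 10 at 26040365 to 26040875, chromosome 3 at 36735680 to 36736405 and chromosome 1 at 43875928 to 43876521. Centred log2 differences of the 10 were 1.74 to 2.39, with SE of 0.21 to 0.28 and limma adjusted p of 1.42e-06 to 0.000375. All 10 are in the authors' deposited list of regions higher in geriatric villus. Adult libraries also had higher villus values at the 9 of them called in all 6 adult libraries, and on chromosome 10 the centred log2 difference was 1.79 in geriatric mice and 0.21 in adult mice, the smallest adult value.

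The largest decrease in villus was on chromosome 4 at 137024337 to 137024991. The pileup per M was 1.31, 0.958 and 0.437 in villus libraries 1, 2 and 3 and 3.64, 2.77 and 1.46 in crypt libraries 1, 2 and 3. Every crypt library was above every villus library. The centred log2 difference was −1.84 ± 0.19 (SE, limma adjusted p = 3.78e-06).

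A second region of the same chromosome, at 149461215 to 149462114, had 0.892, 0.958 and 0.470 per M in villus and 3.53, 1.96 and 1.26 in crypt (centred log2 difference −1.74 ± 0.20 SE, limma adjusted p = 1.95e-05). On chromosome 3 at 142753812 to 142754236 the villus values were 1.25, 0.892 and 0.470 and the crypt values 3.69, 2.32 and 1.14. Here crypt library 3, at 1.14, was below villus library 1, at 1.25, so the groups overlapped per M and separated after centring (−1.67 ± 0.19 SE, limma adjusted p = 1.95e-05).

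The remaining leading regions with less signal in villus were chromosome 16 at 5352314 to 5352692, chromosome 14 at 106131414 to 106132147, chromosome 6 at 109159677 to 109160283, chromosome 2 at 162880063 to 162880506, chromosome 17 at 53985080 to 53985468, chromosome 5 at 3198226 to 3198848 and chromosome 5 at 45683588 to 45684014. Over the 10, centred log2 differences ran from −1.84 to −1.56 with SE of 0.19 to 0.26 and limma adjusted p of 3.78e-06 to 0.000323. The authors' deposited list of regions higher in geriatric crypt holds 9 of them. Only 4 of the 10 had a peak in all 6 adult libraries, and in those the adult difference was −1.80 to −1.14. Per M, crypt library 3 was below villus library 1 on chromosome 14 too, at 1.11 against 1.13. The same held on chromosome 6, at 0.667 against 0.713, and on chromosome 2, at 1.21 against 1.49.

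**Figure D4:**
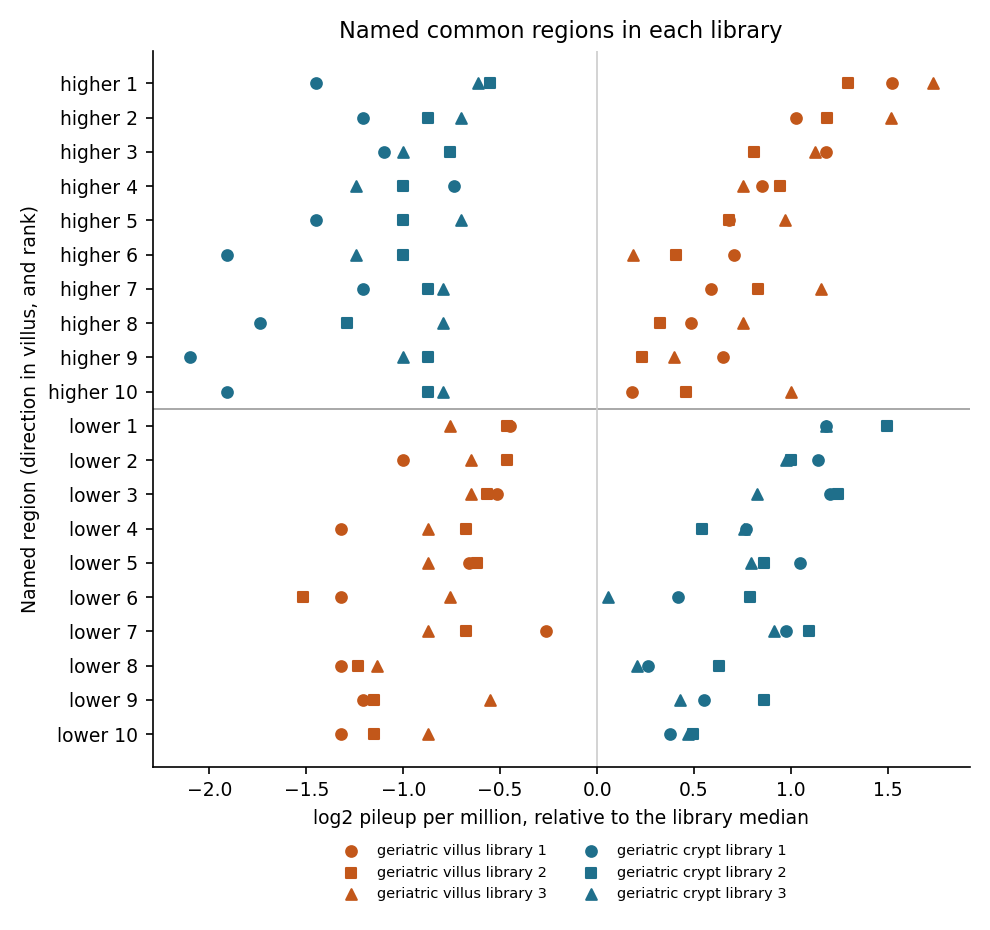
Log2 pileup per M relative to the library median (horizontal axis) in the 10 common regions with the largest increase and the 10 with the largest decrease in villus, in order of size from the top of each part. Each symbol is 1 library. Regions were named only where the 3 villus and the 3 crypt libraries did not overlap on this scale, so that separation is by choice.

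At most of the called regions the height difference between villus and crypt had the same direction at 21 months and at 90 days. Of the 1018 regions higher in geriatric villus, 845 were also called in all 6 adult libraries, among 13355 of the 15587 common regions that were. Adult villus was higher than adult crypt in 827 of these (97.9%), and all adult villus libraries were above all adult crypt libraries in 623 (73.7%), against 12.8% of those 13355. Of the 1035 lower regions 908 could be compared. Adult villus was lower in 895 (98.6%), with no overlap between groups in 696 (76.7%), against 20.1% of all. Median differences at these regions were 0.89 in geriatric and 0.67 in adult mice for the higher and −0.77 and −0.66 for the lower ones. The regions were chosen on geriatric values, which makes the geriatric median the larger by choice. Across the 13355 regions the geriatric and adult differences had a Pearson r of 0.733, given as a description, since regions share libraries and are not independent.

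Whether the villus-crypt difference itself changed with age was tested with an age by compartment term in limma over the 13376 regions called in all 12 libraries when the peaks of the 12 lists are merged together, rather than those of the 6 geriatric lists as above. The term passed an adjusted p of 0.05 in 0 regions (0%), per M or centred, and the smallest adjusted p was 0.969 after centring. At an unadjusted p of 0.05 there were 1 region per M and 643 centred (4.81%). The median SE of the term was 0.31 on the centred log2 scale, and 29 regions had a term of more than 1 in size without passing. Those are the largest estimates among 13376, so they do not show what true difference 3 libraries per group could detect. The 0 calls do not show that the difference was equal at both ages.

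**Figure D5:**
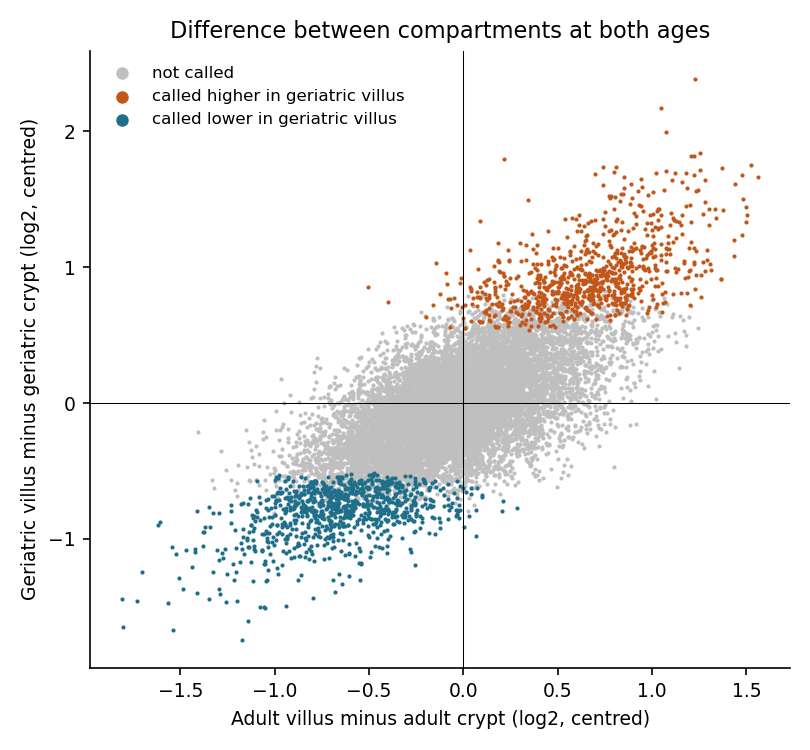
Centred log2 difference of villus minus crypt in geriatric mice (vertical axis) and adult mice (horizontal axis) for the 13355 common regions with a peak in all 6 adult libraries too. Each point is a region; those called higher in geriatric villus lie to the right of 0 in 827 of 845 cases and those called lower to the left in 895 of 908.

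Peak positions within common regions differed little between compartments. In the 10629 regions with a single peak in each of the 6 libraries, the median distance between the summits of 2 libraries was 31 to 39 bp for villus pairs, 32 to 40 bp for pairs of a villus and a crypt library and 29 to 30 bp for crypt pairs. Summits more than 200 bp apart made up 2.68% ± 0.151 of regions for villus pairs (SD, 3 pairs), 3.02% ± 0.324 for villus-crypt pairs (SD, 9 pairs) and 2.21% ± 0.246 for crypt pairs (SD, 3 pairs). The villus-crypt range lay above that of crypt pairs and overlapped that of villus pairs.

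The authors' deposited list of regions higher in geriatric villus has 3929 entries and that of regions higher in geriatric crypt 2062. Both rest on the same libraries, so an overlap with them is not independent evidence. In the authors' deposited villus list, villus-exclusive regions covered 2106 of the 3929 (53.6%), the 13836 common regions of the equal-length lists 147 (3.74%) and crypt-exclusive regions 0. In the authors' deposited crypt list, crypt-exclusive regions covered 1030 of the 2062 (49.95%), common regions 49 (2.38%) and villus-exclusive regions 0. Seen from the other side, 55.8% of villus-exclusive but only 32.5% of crypt-exclusive regions are in the authors' deposited lists. Among height-called common regions, 250 of 1018 higher (24.6%) and 50 of 1035 lower ones (4.83%) are in the authors' deposited list of their direction. None is in that of the other direction. Of the 13534 regions not called, 15 (0.111%) are in the authors' deposited villus list and 4 (0.0296%) in the crypt list.

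Where the authors' deposited lists set geriatric against adult mice, part of the regions were compartment-exclusive. Of the 62 that the authors' deposited list gives as higher in geriatric crypt than in adult crypt, 13 (21.0%) were crypt-exclusive and 0 villus-exclusive, and all 62 overlapped a called region. Villus-exclusive regions were 5.59% and crypt-exclusive regions 4.69% of the regions called on equal-length lists. Of the 55 regions that the authors' deposited list gives as higher in adult crypt than in geriatric crypt, 20 (36.4%) were villus-exclusive in geriatric mice and 0 crypt-exclusive, and 36 of the 55 overlapped any region called in the 6 geriatric libraries. The authors' deposited list of 64 regions higher in geriatric villus than in adult villus held 4 villus-exclusive and 2 crypt-exclusive regions, and 45 of the 64 overlapped any region called in the 6 geriatric libraries. The authors' deposited list of 37 regions higher in adult villus held 0 of either kind, and only 7 of the 37 overlapped any called region. These lists share the geriatric libraries with the exclusive regions, and a low value in geriatric crypt enters both choices.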

How the data were processed

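Per the file headers, the authors called peaks on each library alone with MACS2 2.1.0.20150731, without a control, at q 0.05, keeping 1 read per position, with a local background over 10 kb. The deposited pileup signal is the height of stacked extended reads at the summit, not scaled to depth. The deposited −log10 p-values and q-values, and the fold enrichment, a ratio, are relative to each library's own background. They are the authors' values. The submitters' processing notes name mm9, cutadapt 1.9.1, Bowtie2, SAMtools 0.1.19, bedtools 2.17.0, Picard 2.18.27 and DiffBind. Which threshold the authors set for their region lists is not given in these sources.

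Lists were reduced to equal length by −log10 p. Heights were log2 pileup per M kept reads with no pseudocount, tested with limma 3.58.1 in R 4.3.3 (trended variance, two-sided). The fitting and overlap code was checked on simulated data. Pileup per M was set as the main scale. It called 0 regions without a replicate term, so the text follows the centred scale. Common regions are named by the same rule on it, a choice made after these values were seen. Up to 10 regions per direction were named, by lowest height or by largest difference. Regions of chromosome 18 were counted and not named. Members and rules were chosen with earlier results of these data known. Gene names were not used here, because the annotation used here is of GRCm38.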

Additional observations from a re-analysis of the deposited data

Results flagged for a closer look

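Common regions called in all 12 adult and geriatric libraries numbered 13355. In 12 of them, all geriatric villus libraries were above the geriatric crypt libraries and all adult villus libraries below the adult crypt libraries. Another 12 had the opposite pattern, lower in geriatric villus and higher in adult villus. They were picked out because the 2 ages moved in opposite directions, and they compare with 899 regions higher in villus at both ages and 1275 lower at both ages. In geriatric mice alone, all villus libraries were above all crypt libraries in 1770 of the 13355 and below in 2241. In adult mice alone the counts were 1706 above and 2688 below. The difference between ages was not tested in these regions as a set. The age by compartment term of limma passed an adjusted p of 0.05 in none of the 13376 regions tested, which were merged from the 12 lists. One wide gap was on chromosome 15 at 81344575 to 81345072 (mm9), with a centred log2 difference of −0.53 in geriatric and 0.55 in adult mice. Another was on chromosome 1 at 138036618 to 138037118, with −0.56 in geriatric and 0.52 in adult mice.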

How the results depend on the processing

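Exclusive regions numbered 3163 to 3677 for villus and 2229 to 4096 for crypt over the 4 alternatives of list length, q threshold, coverage and ranking. Leaving out each library gave 4125 to 5607 for villus and 3475 to 4927 for crypt. The adult shares kept their direction in all alternatives. Leaving out each library, the difference was 61.1 to 69.2 points for villus-exclusive and −69.6 to −65.7 for crypt-exclusive regions, and that in list length −10833 to −43.7 peaks. Per M, regions called higher and lower in villus numbered 1018 and 1035 with centring, 83 and 485 with fold enrichment, 3 and 12 with division by extension length, and 1 and 0 without the trend. Leaving out each library gave 0 to 3 higher and 0 lower. The replicate block gave 3165 and 495 per M and 1349 and 1462 centred. The labels do not say that a number marks a mouse, so the numbers were not taken to pair libraries. Same-numbered libraries correlated at 0.0975, 0.0120 and 0.177 in their deviations. Different-numbered ones correlated at −0.167 to 0.0994, mostly below 0, so pairing remains possible. These correlations leave out the overall height, which was highest in library 1 and lowest in library 3 of both compartments. Not every library correlated best with its own number. Centred, the alternatives chosen after seeing the data gave 489 and 382 with fold enrichment and 562 and 624 at −log10 q of at least 5, with fewer regions tested. Leaving out each library gave 549 to 1063 higher and 539 to 1428 lower. The cause of the other moves was not tested. The age by compartment term called 0 regions in each fit. With the block, the adult shares had an exact p of 0.25, the smallest that 3 pairs allow. Depth limits what an absent peak shows.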
